A study of Mus musculus with 12 samples.

Results

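The imprinted growth regulators are genes expressed mainly from the chromosome of 1 parent whose products set how much fetal tissue grows: H19, Igf2, Dlk1, Meg3, Peg3, Cdkn1c, Grb10, Plagl1, Mest and Igf2r. They were chosen by name, through the accession that the array gives each probe, and not by their values. Of the 10 genes, 9 had a matched probe, with 18 probes in all among the 41174 probes of the array, and all 9 were among the 19180 genes and unnamed accessions tested. H19 is not analysed here, because its probe was not matched to a symbol. Expression was measured on 12 single-colour arrays of mouse gonadal somatic cells at embryonic day 11.5, each array from a different embryo. The groups were homozygous Jmjd1a mutant males, heterozygous control males, homozygous Jmjd1a mutant females and heterozygous control females, with 3 embryos each. Jmjd1a, now named Kdm3a, is an enzyme that removes methyl groups from lysine 9 of histone H3. The controls thus also carry the mutant allele on 1 chromosome, and every embryo carried the Nr5a1/CD271 transgene, which marks somatic cells of the gonad for magnetic sorting. The starting suspension held gonads and mesonephroi together, so only the sort separates the cells of those organs.

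Imprinted genes often lie in clusters in which methylation of a control region on a single parental chromosome sets the active allele of several neighbours. Many paternally expressed members, such as Igf2, promote growth of the fetus, and many maternally expressed members, such as Igf2r, Cdkn1c and Grb10, restrain it. In the fetal gonad, insulin and IGF signalling is known to act in the proliferation of the somatic cells and in male sex determination. In the RefSeq gene order of GRCm38.p6, Igf2 and H19 lie beside each other with the predicted gene Gm33148 between them, and Dlk1 and Meg3 are separated by Gm34081 and Gm34017. Peg3 lies between Zim1 and Usp29, Igf2r beside Airn, Mest beside Copg2, and Cdkn1c in the stretch from Kcnq1ot1 to Slc22a18 and Phlda2.

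Zfp57 is a zinc finger protein that keeps imprints by binding the hexamer TGCCGC where its CpG is methylated. The RefSeq promoters of GRCm38.p6, from 250 bases before to 50 bases after each start, were searched for it on both strands. It occurred in 6 of 15 promoters of the members (40.0%), against 3813 of 32851 promoters in the whole table (11.6%). The 15 promoters belong to 8 of the 10 members, all but H19 and Cdkn1c. All 6 held it as the reverse complement GCGGCA, and a pair of Mest promoters among the 6 overlap almost entirely. Shown here are promoters that held it, from Igf2, Plagl1 and Grb10, 3 genes whose brightest probes varied together over the embryos. A promoter of Mest, whose level varied least, is shown too. The other Igf2 promoters and the other Grb10 promoter did not hold the hexamer. The hexamer is in capitals, each sequence reads 5′ to 3′ on the strand of its gene, and a match is a description of the letters, not a bound site. The Igf2 promoter lies at chr7:142661222-142661521 on the minus strand, the Plagl1 promoter at chr10:13090582-13090881 on the plus strand, the Grb10 promoter at chr11:12037371-12037670 on the minus strand and the Mest promoter at chr6:30737800-30738099 on the plus strand.
Igf2: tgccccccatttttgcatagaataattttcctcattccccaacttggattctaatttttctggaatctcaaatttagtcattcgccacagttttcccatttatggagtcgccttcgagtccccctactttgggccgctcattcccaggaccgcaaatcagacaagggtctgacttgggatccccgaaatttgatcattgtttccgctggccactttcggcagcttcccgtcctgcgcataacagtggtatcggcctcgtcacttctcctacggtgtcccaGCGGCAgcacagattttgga
Plagl1: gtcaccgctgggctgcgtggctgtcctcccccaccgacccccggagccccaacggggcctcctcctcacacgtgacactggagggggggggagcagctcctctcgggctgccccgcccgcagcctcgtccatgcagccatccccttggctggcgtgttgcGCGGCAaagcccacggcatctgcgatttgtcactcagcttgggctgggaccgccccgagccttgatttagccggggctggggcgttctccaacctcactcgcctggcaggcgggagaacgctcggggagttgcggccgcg
Grb10: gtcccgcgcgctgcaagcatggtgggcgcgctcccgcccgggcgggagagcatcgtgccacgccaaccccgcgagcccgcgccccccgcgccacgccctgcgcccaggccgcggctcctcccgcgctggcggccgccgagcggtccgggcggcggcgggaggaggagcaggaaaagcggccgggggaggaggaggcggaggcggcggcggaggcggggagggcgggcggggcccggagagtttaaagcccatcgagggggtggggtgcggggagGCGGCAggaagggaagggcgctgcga
Mest: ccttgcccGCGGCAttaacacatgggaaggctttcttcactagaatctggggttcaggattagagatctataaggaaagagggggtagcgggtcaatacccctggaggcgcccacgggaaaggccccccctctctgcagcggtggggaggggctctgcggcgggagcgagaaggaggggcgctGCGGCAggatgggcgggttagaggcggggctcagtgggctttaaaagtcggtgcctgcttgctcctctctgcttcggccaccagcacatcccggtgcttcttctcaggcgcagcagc
Of the promoters shown, those of Igf2 and Grb10 held the hexamer just after the start of transcription. That of Plagl1 held it in the middle of the window, and that of Mest held 2 copies. The G and C content was 49.7% for this Igf2 promoter, 70.7% for Plagl1, 80.0% for Grb10 and 62.7% for Mest.

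A level is log2 of the processed signal of a probe minus log2 of the 75th percentile of its array, so that a level of 0 is the 75th percentile itself. Levels are comparable between embryos for the same probe, and not between probes. The 75th percentile, called array brightness here, ranged from 142.9 to 299.5 (a ratio of 2.10), with 58.0% to 65.2% of spots above background. The arrays lay on 3 slides of 4. Mutant male 1 shared slide 1 with the control males, mutant males 2 and 3 shared slide 2 with the first 2 control females, and the mutant females shared slide 3 with control female 3. Mean brightness was 185 on slide 1, 209 on slide 2 and 285 on slide 3, so slide, brightness and group moved together. Kdm3a, the targeted gene, was at 1.04, 0.99 and 0.70 in mutant males against 3.03, 2.70 and 2.85 in control males. It was at 0.68, 0.75 and 0.43 in mutant females against 2.91, 2.81 and 2.96 in control females, which matches the labels. Whether this probe lies in the deleted part of the gene is unknown here. Sry was well above background in the 3 control males, at -3.80 to -2.94, and on no other array. Mutant males were at -5.44 to -5.09, below the control males and above every female. Mutant females were at -7.58 to -7.43 and control females at -7.45 to -6.92. The mutant minus control difference of Sry in males was -1.89 ± 0.21 (adjusted p = 0.0023 in limma), with mutant males not well above background. All 9 marker genes of gonadal somatic cells, among them Nr5a1, Wt1, Gata4 and Lhx9, were well above background on all 12 arrays.

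All 9 measured members were well above background on all 12 arrays, and none was saturated. None passed the test for Jmjd1a genotype. Of the 9, 0 passed limma's adjusted p of 0.05 in mutant against control males, where 0.469% of all features passed, and 0 passed in females, where 0.355% passed. In the mean of the sexes 0 of 9 passed, against 1.12% of all features. At an unadjusted p under 0.05 the count was also 0 of 9 in each of these 3 comparisons, where 11.9%, 10.4% and 23.6% of all features fell under it. On the brightest probe of each gene, the largest fitted fold of any member was 1.17 in males and 1.29 in females, both for Dlk1. Other probes of Meg3 in both sexes, and of Igf2 in females, differed more, as given below. In bulk samples fewer cells of a type and less RNA per cell cannot be told apart.

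**Figure D1:**
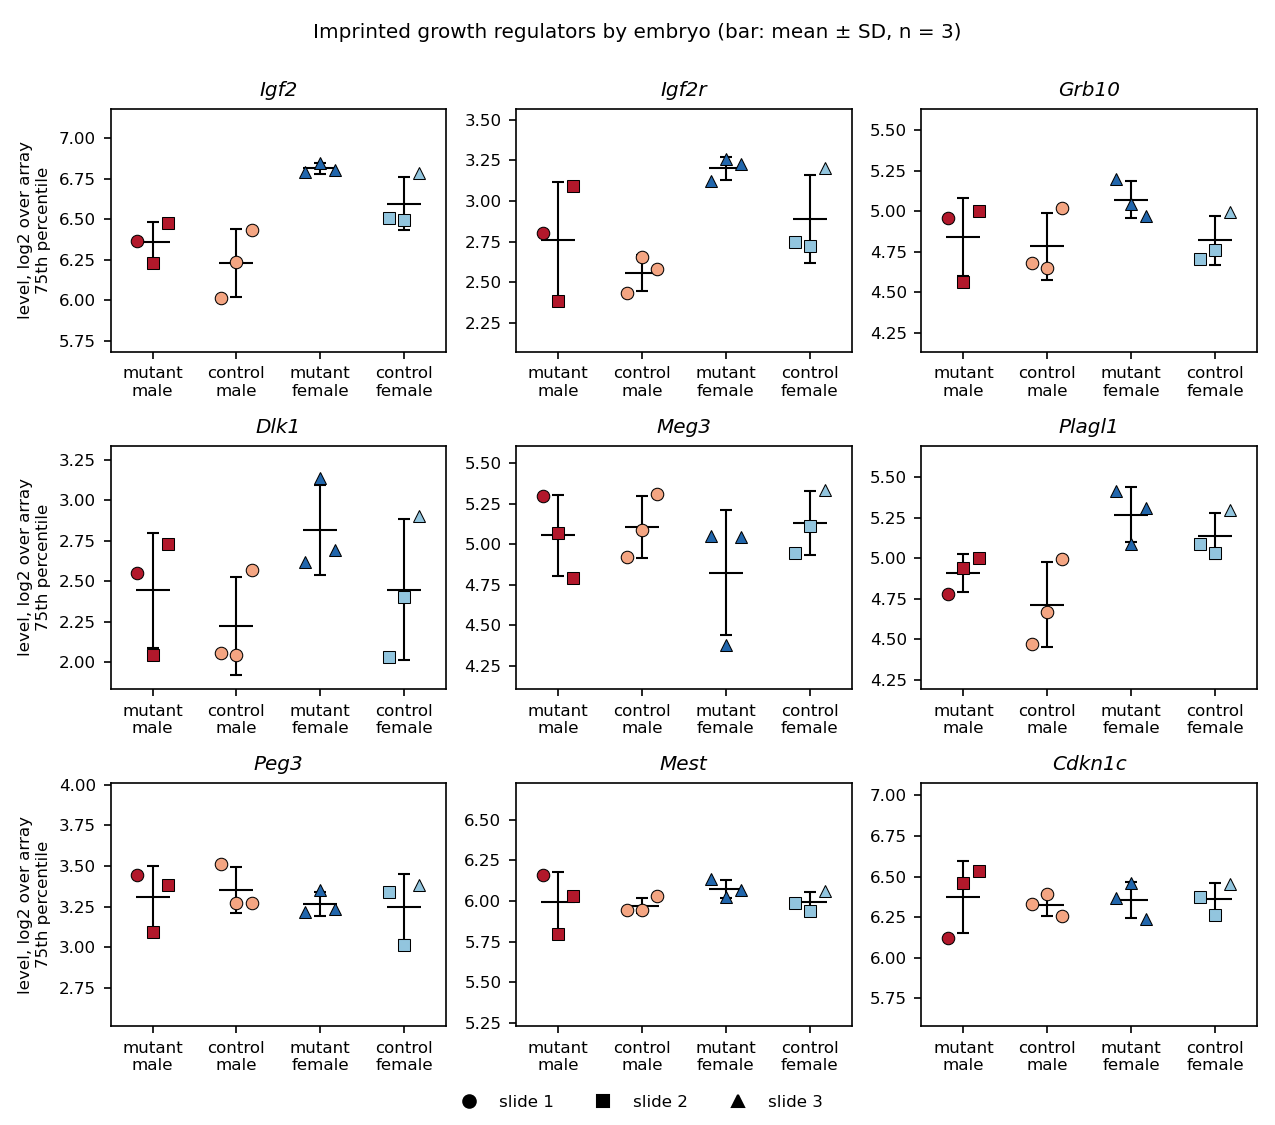
Level of the 9 measured imprinted growth regulators in each embryo, as log2 of the signal over the 75th percentile of the array. Points are embryos, shapes are slides, and bars give mean ± SD of 3 embryos, with mutants left of their controls. In every gene shown the control female on slide 3 (triangle) is the highest of the control females. In Igf2, Igf2r and Dlk1 it lies at the level of the mutant females.

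Igf2, the fetal growth factor of the group, was at 6.36, 6.23 and 6.48 in mutant males against 6.02, 6.24 and 6.43 in control males. In females it was at 6.79, 6.85 and 6.80 in mutants against 6.51, 6.49 and 6.78 in controls. The male groups overlapped, and the female groups did not, although the lowest mutant female at 6.79 and control female 3 at 6.78 almost met. The fitted difference, mutant minus control, was 0.13 ± 0.13 (SE) in males, with an adjusted p of 0.604 in limma, and 0.22 ± 0.13 in females (adjusted p = 0.498). The 95% interval in females, -0.08 to 0.51, includes no difference. The second Igf2 probe averaged 4.73 in mutant females against 4.30 in control females, without overlap. Its lowest mutant female was at 4.67 and control female 3 at 4.62. In males it averaged 4.03 in mutants against 3.93 in controls, with overlap. Igf2 was the only member of 9 whose female groups did not overlap, while 12.7% of all features did not overlap there. In males 0 of 9 were without overlap on the brightest probe, against 20.3% of all features. With slide as a block the female difference was 0.03 (adjusted p = 1.00), which is also the difference within slide 3.

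Igf2r, the receptor that removes Igf2 by carrying it to lysosomes, was at 2.80, 2.38 and 3.09 in mutant males against 2.43, 2.65 and 2.58 in control males. It was at 3.12, 3.26 and 3.23 in mutant females against 2.74, 2.72 and 3.20 in control females. Both pairs of groups overlapped, in males because mutant male 2 was the lowest of all, and in females because control female 3 reached the mutants. The difference was 0.20 ± 0.19 in males (adjusted p = 0.565) and 0.31 ± 0.19 in females (adjusted p = 0.490). Over both sexes it was 0.26 ± 0.13 (adjusted p = 0.239), the smallest adjusted p of any member. Within slide 3 the female difference was 0.00, and within slide 1 the male difference was 0.25.

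Grb10 encodes an adaptor that binds activated insulin and IGF receptors and damps their signal. Its brightest probe was at 4.96, 4.57 and 5.00 in mutant males against 4.68, 4.65 and 5.02 in control males, and at 5.20, 5.04 and 4.97 in mutant females against 4.71, 4.76 and 4.99 in control females. The groups overlapped in both sexes. The difference was 0.06 ± 0.16 in males (adjusted p = 0.840) and 0.25 ± 0.16 in females (adjusted p = 0.499), with 0.08 within slide 3. The other probes of the gene went the opposite way in females, with -0.16 ± 0.14 each (adjusted p = 0.584 and 0.579), so no direction could be given for Grb10 as a gene.

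**Figure D2:**
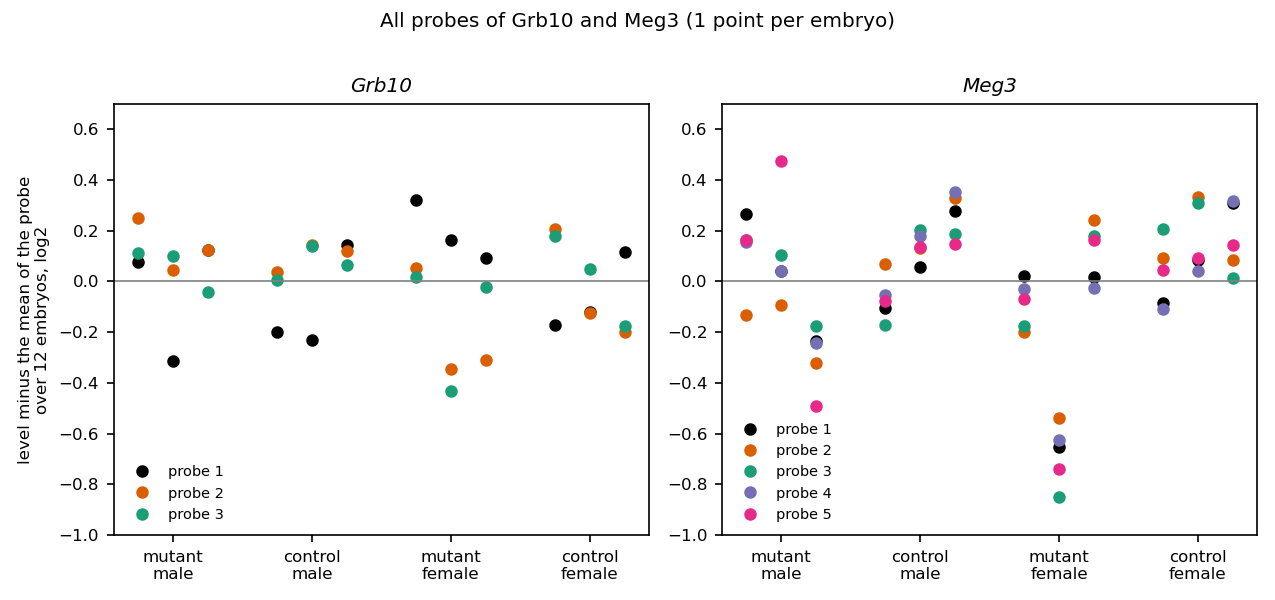
Level of each of the 3 probes of Grb10 and the 5 probes of Meg3 in each embryo, minus the mean of that probe over 12 embryos (log2). The Grb10 probes diverge in the female groups, whereas all 5 Meg3 probes are lowest in mutant female 2.

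Dlk1 and Meg3 share a cluster and are expressed from opposite parental chromosomes. Dlk1, a membrane ligand of the Notch family that is expressed from the paternal chromosome, was at 2.55, 2.05 and 2.73 in mutant males against 2.05, 2.04 and 2.57 in control males. It was at 2.62, 3.14 and 2.69 in mutant females against 2.04, 2.40 and 2.90 in control females. It had the widest spread of any member, with an SD within groups of 0.348 against a median of 0.236 over all features, and the groups overlapped in both sexes. The difference was 0.22 ± 0.26 in males (adjusted p = 0.643) and 0.37 ± 0.26 in females (adjusted p = 0.520). With slide as a block the female value was -0.09, and with array brightness as a covariate the male value was -0.01, so the sign of each depended on the model.

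Meg3, the maternally expressed long noncoding RNA of the cluster, was at 5.30, 5.07 and 4.79 in mutant males against 4.92, 5.08 and 5.31 in control males. In females it was at 5.05, 4.38 and 5.05 in mutants against 4.94, 5.11 and 5.34 in controls. On the brightest probe mutant female 2 was the lowest embryo, and the groups overlapped in both sexes. The difference was -0.05 ± 0.21 in males (adjusted p = 0.896) and -0.31 ± 0.21 in females (adjusted p = 0.512). On the second probe the male groups did not overlap, at -0.06 to 0.16 in mutants against 0.33 to 0.58 in controls. Such a lack of overlap was found for 20.3% of all features in males, and the remaining Meg3 probes overlapped there. All 5 probes of Meg3 gave a negative female difference, between -0.31 and -0.46, and mutant female 2 was lowest on each. Without mutant female 2 the female difference of the brightest probe was -0.08. Within slide 3 the brightest probe gave -0.51, and within slide 1 the male value was 0.19, opposite in sign to that over all male embryos. Over the 12 embryos the levels of Dlk1 and Meg3 had a Pearson r of -0.25 (permutation p = 0.444) and a Spearman rho of -0.10 (permutation p = 0.747). Without the 2 embryos farthest from the median of Dlk1 the Pearson r was 0.27, with group means taken out 0.01 (exact permutation p = 0.992) and with slide means taken out -0.15, so neither a common nor an opposite course was detectable.

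Plagl1 and Cdkn1c act on the cell cycle. Plagl1, a paternally expressed zinc finger transcription factor known in mouse to regulate other imprinted genes, was at 4.78, 4.94 and 5.00 in mutant males against 4.47, 4.67 and 5.00 in control males. It was at 5.41, 5.09 and 5.31 in mutant females against 5.09, 5.03 and 5.30 in control females. The groups overlapped in both sexes, and the difference was 0.20 ± 0.15 in males (adjusted p = 0.517) and 0.13 ± 0.15 in females (adjusted p = 0.668). Within slides it was 0.07 in males and -0.03 in females. The second Plagl1 probe gave 0.08 in males and -0.06 in females, opposite in sign to the first in females. Cdkn1c, which encodes the cyclin-dependent kinase inhibitor p57, was at 6.12, 6.46 and 6.53 in mutant males against 6.33, 6.39 and 6.26 in control males. Its female levels ranged from 6.24 to 6.46 in mutants against 6.26 to 6.46 in controls. The group ranges of Cdkn1c in females were thus nearly the same. Its difference was 0.05 ± 0.13 in males (adjusted p = 0.850) and -0.01 ± 0.13 in females (adjusted p = 0.978), and the 95% interval in females was -0.29 to 0.28.

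Mest, a paternally expressed gene of a hydrolase-like protein of mesoderm, and Peg3, a paternally expressed zinc finger protein, gave differences close to 0, and Mest had the smallest spread of any member. Mest was at 6.16, 5.80 and 6.03 in mutant males against 5.94, 5.94 and 6.03 in control males, and at 6.14, 6.03 and 6.07 in mutant females against 5.99, 5.94 and 6.06 in control females. Its SD within groups was 0.103, smaller than in all but 8.03% of the features, and its difference was 0.02 ± 0.11 in males (adjusted p = 0.912) and 0.08 ± 0.11 in females (adjusted p = 0.711). The 95% interval for Mest in females, -0.17 to 0.33, bounds the fitted difference from both sides. Peg3 ranged from 3.09 to 3.45 in mutant males against 3.27 to 3.51 in control males, and from 3.22 to 3.35 in mutant females against 3.01 to 3.38 in control females. Its difference was -0.04 ± 0.14 in males (adjusted p = 0.873) and 0.02 ± 0.14 in females (adjusted p = 0.942).

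As a group, 7 of the 9 members had a positive and 2 a negative difference in males, and likewise 7 and 2 in females, read from the brightest probe of each. Counting all probes, 6 members were positive on every probe in males and 5 in females, 2 were negative in each sex, and the others had probes of both signs (Grb10 in males, Grb10 and Plagl1 in females). The median difference was 0.06 in males and 0.13 in females, against -0.05 over all features in each. Over both sexes the median was 0.16 against -0.05. The members overlap in what they measure, since the brightest probes of Igf2, Igf2r, Plagl1, Grb10 and Dlk1 varied together over embryos. These counts are thus not 9 separate observations. When arrays were weighted by their own residual spread, 3 members passed in females (Igf2, Grb10 and Igf2r) while 30.3% of all features passed, and 5 passed in the mean of the sexes (these 3 with Dlk1 and Plagl1) while 52.5% of all features passed. Their brightest probes were all higher in mutants, but the other Grb10 probes gave -0.06 and -0.09 in the mean of the sexes without weights. The lowest weight, 0.192, went to control female 3, the control embryo on slide 3.

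**Figure D3:**
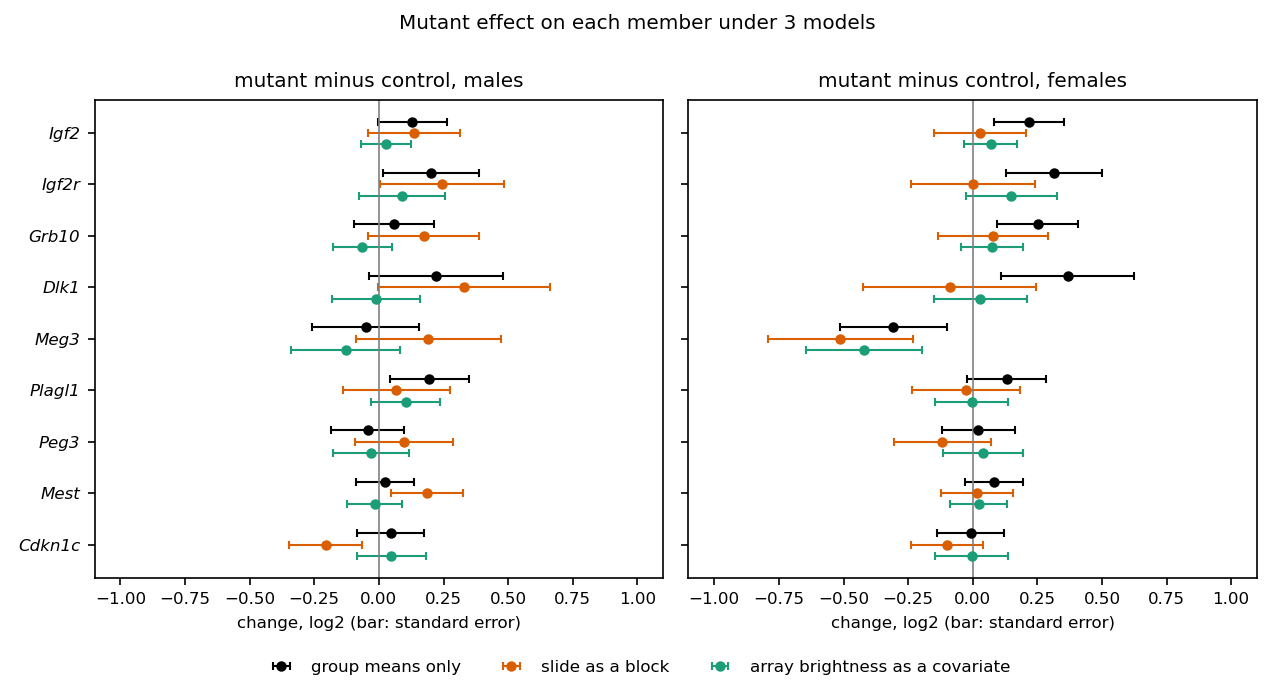
Fitted difference of each member, mutant minus control (log2, bar: standard error), in males and in females, from group means alone, with slide as a block and with array brightness as a covariate. In females the values of Igf2, Igf2r, Grb10 and Dlk1 lie nearer to 0 with slide or brightness in the model than from group means alone.

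The difference between the sexes was larger for some members than the mutant effect, though none passed the adjusted threshold. In control males against control females 0 of 9 members passed at the adjusted threshold, against 0.177% of all features, and 2 of 9 (Igf2 and Plagl1) had an unadjusted p under 0.05, against 10.8%. In mutant males against mutant females 0 of 9 passed, against 0.130%, and 3 of 9 (Igf2, Plagl1 and Igf2r) had an unadjusted p under 0.05, against 11.5%. The male minus female difference of Igf2 was -0.45 ± 0.13 in mutants (adjusted p = 0.309) and -0.37 ± 0.13 in controls (adjusted p = 0.428), and the second Igf2 probe gave -0.70 ± 0.19 in mutants and -0.37 ± 0.19 in controls. For Plagl1 the male minus female difference was -0.36 ± 0.15 in mutants (adjusted p = 0.417) and -0.42 ± 0.15 in controls (adjusted p = 0.427). For Igf2r it was -0.44 ± 0.19 in mutants (adjusted p = 0.416) and -0.33 ± 0.19 in controls (adjusted p = 0.496). On the brightest probes of these 3 genes, 3 of 9 members, every male lay below every female in both genotypes. Over all features the sexes did not overlap, in either direction, for 15.9% in controls and 22.8% in mutants. The share with males lower was 5.90% in controls and 8.65% in mutants. On the second Plagl1 probe the sexes overlapped in both genotypes, and on the second Igf2 probe they overlapped in controls. With slide as a block, the sex difference of Igf2 was -0.17 in mutants and -0.28 in controls, that of Plagl1 was -0.06 in mutants and -0.15 in controls, and that of Igf2r was 0.00 in mutants and -0.24 in controls. No slide held males and females of the same genotype, so a sex difference within a slide could not be read directly.

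The mutant effect did not differ detectably between males and females. In the interaction, the male minus the female mutant effect, 0 of 9 members passed, as did 0 of all 19180 features (0%), and 0 members had an unadjusted p under 0.05, against 701 features (3.65%). The largest value was that of Meg3, at 0.26 ± 0.29 (adjusted p = 1.00), with a 95% interval of -0.39 to 0.90, which leaves the precision at 3 embryos a group too low to tell such values from 0.

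The levels of several members followed array brightness, a relation examined after the values had been seen. Brightness is the 75th percentile that is subtracted to form the level, so both share that term, which enters the level with a minus sign. Over the 12 embryos, Igf2 had a Pearson r of 0.952 with log2 brightness (permutation p = 1e-05, the smallest that 100000 permutations can give, adjusted over 18 probes 9e-05) and a Spearman rho of 0.888 (permutation p = 0.0003, adjusted 0.0027). Without the 2 embryos farthest from the median r was 0.920, with group means taken out 0.862 (exact permutation p = 0.0285, adjusted 0.128) and with slide means taken out 0.847. Of 12040 named genes well above background on all arrays, 0.0498% had a higher r, 11.0% had an r of 0.8 or more and 13.1% an r of -0.8 or less. For Plagl1 r was 0.870 (rho 0.839, permutation p = 0.00018 for r and 0.00111 for rho, adjusted 0.00108 and 0.00499), for Dlk1 0.847 (rho 0.804, permutation p = 0.00071 and 0.00239, adjusted 0.00281 and 0.00717) and for Igf2r 0.845 (rho 0.825, permutation p = 0.00078 and 0.00156, adjusted 0.00281 and 0.00562). Without the 2 farthest embryos these were 0.745 for Plagl1, 0.889 for Dlk1 and 0.807 for Igf2r, with group means taken out 0.636, 0.829 and 0.601 (exact permutation p = 0.0995, 0.0123 and 0.0833, adjusted 0.256, 0.0741 and 0.256), and with slide means taken out they were 0.644 for Plagl1, 0.717 for Dlk1 and 0.510 for Igf2r. The second Igf2 probe had an r of 0.964, and 0.929 with group means taken out (exact permutation p = 0.00463, adjusted 0.0417). The second Plagl1 probe had an r of 0.428 (permutation p = 0.164). Cdkn1c, Meg3 and Peg3 had an r of 0.0469, -0.107 and -0.254 (permutation p = 0.884, 0.753 and 0.426). The brightest Grb10 probe had an r of 0.804, against -0.613 and -0.584 for its other probes. With group means taken out the brightest Grb10 probe had 0.823 (exact permutation p = 0.00309, adjusted 0.0417). The other Grb10 probes then had -0.196 and -0.365 (exact permutation p = 0.65 and 0.231). With brightness as a covariate the mutant minus control difference of Igf2 was 0.03 in males and 0.07 in females, and its male minus female difference was -0.17 in mutants and -0.13 in controls. The part of brightness in these results was not tested, and brightness cannot be told apart from slide and group in this layout.

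**Figure D4:**
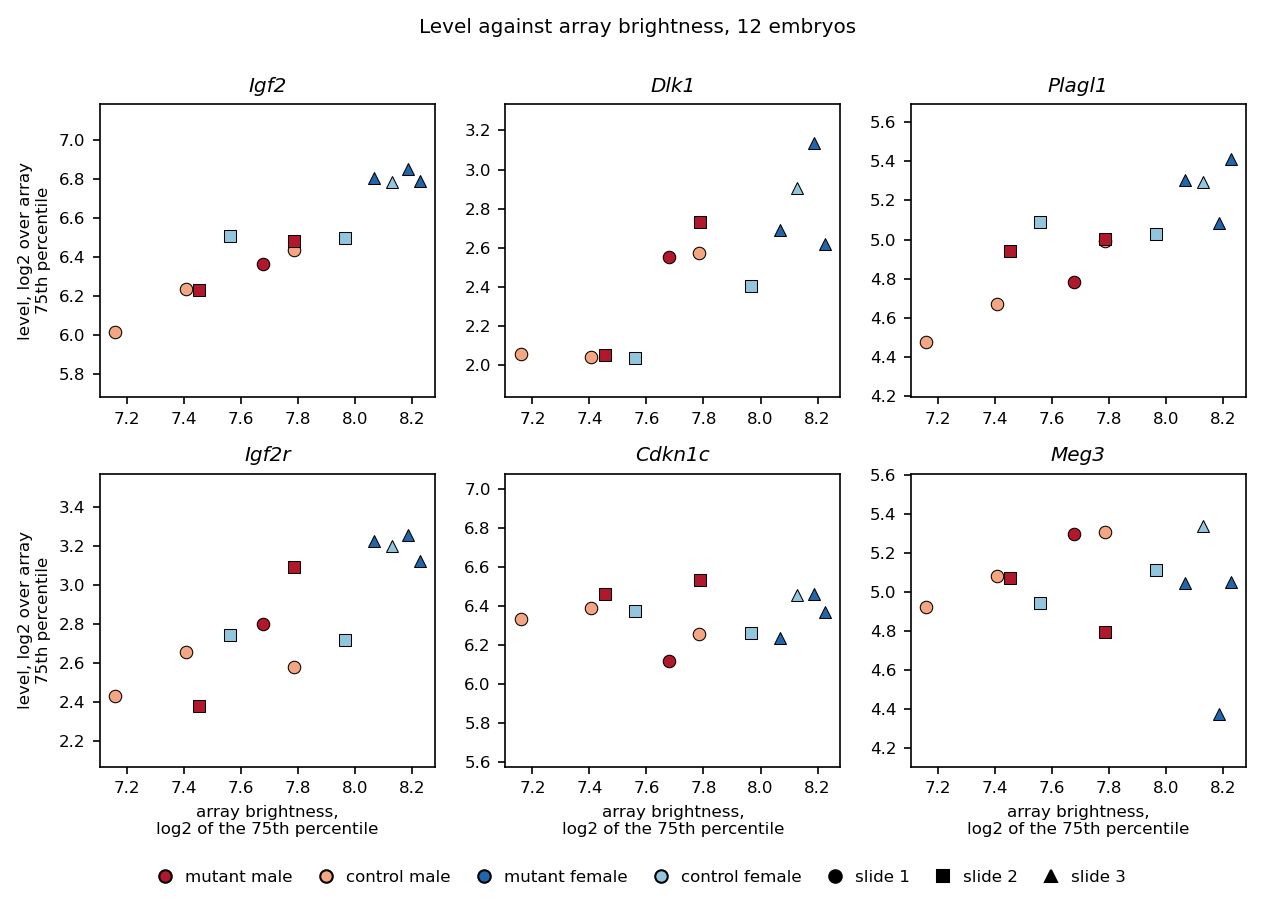
Level of 6 members (log2 over the 75th percentile) against array brightness (log2 of the 75th percentile) in 12 embryos. Colours are groups and shapes are slides. Igf2, Dlk1, Plagl1 and Igf2r are higher on brighter arrays, with r of 0.952, 0.847, 0.870 and 0.845, whereas Cdkn1c and Meg3 have an r of 0.0469 and -0.107.

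Among 12040 named genes, those whose course over the 12 embryos was most like that of Igf2 were Fat1 (r = 0.970), Synpo (0.964) and Tril (0.958). Within the members, Plagl1 and Igf2r each had an r of 0.903 with Igf2, Dlk1 0.801 and Grb10 0.745. Most like Dlk1 were B4galt1 (0.983), Tbc1d22b (0.982) and Aamp (0.981), and most like Meg3 were Ly6d (0.870), Slc25a27 (0.851) and Dus2 (0.841). The points share array, slide and brightness, and these values describe the arrays without a test.

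No gene of the other imprinted lists passed in any of the 6 comparisons. Of 20 other paternally expressed genes tested, 9 had a positive and 11 a negative difference in the mean of the sexes, with a median of -0.08 against -0.05 over all features, and none passed. Of 18 other maternally expressed genes, 9 were positive and 9 negative, with a median of 0.01. An unadjusted p under 0.05 was found for 6 of the 20 and for 3 of the 18, against 23.6% of all features. The smallest p in the maternally expressed list was that of Zim1, a zinc finger gene beside Peg3, at -0.70, -0.59 and -0.92 in mutant males against -0.20, -0.35 and -0.47 in control males. In females Zim1 was at -1.44, -1.51 and -0.92 in mutants against -0.07, -0.43 and -0.92 in controls. Its male groups did not overlap, as for 20.3% of all features, and its female groups met at the third embryo of each. The mean difference was -0.61 ± 0.15 (adjusted p = 0.0975), and a slide block turned it into -0.37 (adjusted p = 0.830). Ppp1r9a, a maternally expressed regulator of the actin cytoskeleton, gave -0.31 ± 0.08 (adjusted p = 0.113), and Peg12, paternally expressed, gave 0.40 ± 0.13 (adjusted p = 0.162).

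Of the partners of Igf2 in the IGF axis (22 named, 16 tested), 13 had a positive and 3 a negative mutant difference over both sexes, with a median of 0.24 against -0.05 over all features. None of the 16 passed the adjusted threshold in limma, where 1.12% of all features did, and 8 had an unadjusted p under 0.05, against 23.6% of all features. Igf1, the other ligand of the IGF1 receptor, was the opposite of most of its list, at 1.89, 2.31 and 1.94 in mutant males against 2.95, 2.71 and 2.42 in control males. It was at 1.59, 1.57 and 1.78 in mutant females against 2.80, 2.65 and 1.97 in control females. On this probe all mutants lay below all controls of their sex, while 20.3% of all features did not overlap in males and 12.7% in females. On the second probe mutant female 3 was at -0.27 and control female 3 at -0.58, so that the female groups overlapped, and the mean difference was -0.38 ± 0.14 (adjusted p = 0.178 over all probes). On the brightest probe the mean difference of Igf1 was -0.74 ± 0.15 (adjusted p = 0.0522), just over the threshold, and it crossed the threshold under several alternatives, among them normexp background correction at -0.65 (adjusted p = 0.0232). It did so too when mutant male 2, control female 3 or control male 3 was left out in turn (adjusted p = 0.0421, 0.0074 and 0.0477). Fitting slide as a block gave -0.56 for Igf1 (adjusted p = 0.350). The RNA-binding protein Igf2bp1, which binds Igf2 transcripts, gave 0.34 ± 0.11 (adjusted p = 0.160), and the receptor Igf1r gave 0.36 ± 0.13 (adjusted p = 0.177).

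**Figure D5:**
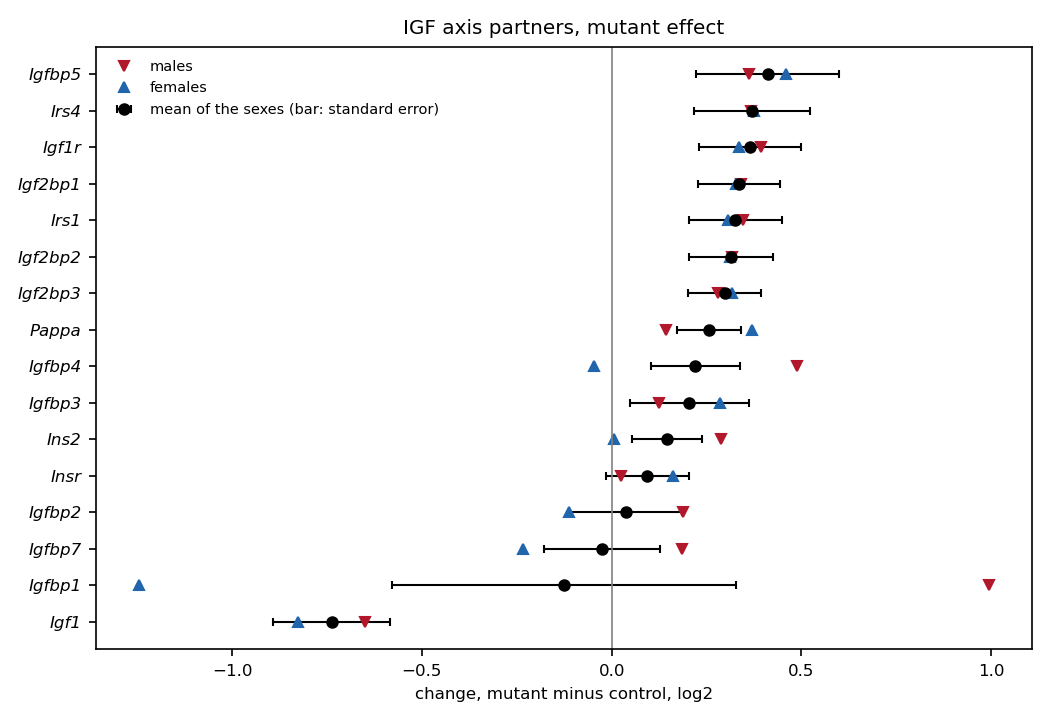
Mutant minus control difference (log2) of 16 IGF axis partners in males, in females and as the mean of the sexes (bar: standard error). Among the means Igf1 is lowest at -0.74 and 13 of 16 are above 0, while in females alone Igfbp1 is lowest at -1.25.

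Markers of other cell types were summed for each embryo. The summed level of 12 mesenchymal markers, all well above background on all 12 arrays, ranged over 156 to 203 times the 75th percentile in mutant males against 118 to 164 in control males, and over 182 to 206 in mutant females against 151 to 192 in control females. By slide it averaged 146 on slide 1, 168 on slide 2 and 195 on slide 3, the same order as brightness. Of 12 mesonephric markers, 8 were well above background on all arrays and Ret on none, and the summed level of the list was 18.2 to 27.3 in mutant males against 14.0 to 15.4 in control males, and 12.9 to 17.5 in mutant females against 16.7 to 19.4 in control females. The mesonephric sums thus did not overlap in males and overlapped in females. Of 11 mesonephric markers tested, 10 had a positive difference in males, with a median of 0.87 against -0.05 over all features. In females 4 were positive and 7 negative, with a median of -0.10. None passed the adjusted threshold in limma in either sex. The sum of the 10 erythroid markers with a probe ranged from 26.5 to 1057 over all embryos, with wide overlap between groups. The summed level of 9 germ cell markers was 2.95 to 4.43 in mutant males against 4.46 to 4.76 in control males, and 2.46 to 3.26 in mutant females against 3.74 to 4.88 in control females. The mutant and control ranges of this sum did not overlap in either sex, while Dazl and Prdm1 were well above background on no array. In the mean of the sexes 5 of the 7 germ cell markers tested had a positive and 2 a negative difference. The lower sum was thus not shared by most of the list. Of the 7, 1 passed the adjusted threshold in limma, against 1.12% of all features. It was Ifitm3, a membrane protein that other cells make too, with a difference of -0.68 ± 0.14 (adjusted p = 0.0432). Ifitm3 no longer passed with the slide in the fit as a block (-0.77, adjusted p = 0.0816), with brightness as a covariate (-0.59, adjusted p = 0.198), with a replicate block (adjusted p = 0.0967), with no filter on dim probes (adjusted p = 0.0877) and when most single embryos were left out. Ddx4, a helicase of the germ line, gave the opposite sign at 0.97 ± 0.24 (adjusted p = 0.0873). Both genes were named after their values were seen.

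The summed endothelial level was 6.01 to 12.7 in mutant males against 5.98 to 11.3 in control males, and 5.15 to 10.1 in mutant females against 7.30 to 10.7 in control females. That of macrophages and leukocytes was 1.45 to 3.25 in mutant males against 0.851 to 3.20 in control males, and 0.605 to 2.53 in mutant females against 1.05 to 2.75 in control females. That of neural cells was 1.65 to 2.15 in mutant males against 1.38 to 1.62 in control males, and 1.16 to 1.90 in mutant females against 1.21 to 1.73 in control females. Of the endothelial, leukocyte and neural sums only the neural sum was without overlap, and only in males. The part of any of these cells in the levels of the members was not tested.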

How the data were processed

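The authors deposited the scanner output of 12 Agilent arrays (design 014868, on mm9), made per the file headers with Feature Extraction 10.5.1.1. The authors' intensity, per the file headers, is linear and background-subtracted, without scaling between arrays. Per the labels' protocols, RNA of each embryo was amplified linearly and labelled with Cy3. Outlier spots were dropped, and each intensity was taken as log2 and set against the 75th percentile of its array. Probes were named by accession with RefSeq (GRCm38.p6), which also gave neighbours and promoters and matched 27479 of 41174 probes. Testing required a signal well above background in every embryo of some group, and each gene was read from its brightest such probe. Group means over 12 arrays were fitted in limma 3.58.1 under R 4.3.3, with Benjamini-Hochberg adjustment at 0.05 over 19180 features. The fit was tested on simulated data. The p-values measure the spread between single embryos, and litters are unknown here. The number of arrays limits the precision.

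The members and gene lists were chosen with earlier results of these data known. The text names all members, Kdm3a and Sry as checks, and from each of the imprinted, IGF axis and imprint maintenance lists the genes past the threshold or else those of smallest p in the mean mutant and the control sex comparison, with Igf1r, Ifitm3 and Ddx4 added after their values were seen. For likeness it names the 3 genes of highest correlation with Igf2, Dlk1 and Meg3. Alternatives were quantile normalization, normexp, other filters on dim probes, all probes separately, only the groups compared, array weights, a replicate block, a slide block, within-slide values, brightness as a covariate and leaving out each embryo.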

Additional observations from a re-analysis of the deposited data

How the results depend on the processing

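With 3 embryos a group, slide and brightness lying close to group, and 1 array to each embryo, small changes of the members could not be resolved. No member passed the threshold in any comparison under any alternative but array weights, which gave 3 members in females and 5 in the mean of the sexes. Of 1628 recomputed values of named genes, 1452 were counted as the same. Of the rest, 45 crossed to the called side, 14 lost the call (all of Ifitm3) and 117 moved in sign or size without a call. A value counted as the same if it kept its direction and side of the threshold. Within-slide values counted as the same if they differed from the main value by less than the SD within groups. Some of opposite sign, such as Meg3 in males, were thus included. The cause of the changes was not tested.

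The main counts of features past the threshold were 90 in mutant against control males, 68 in females, 214 in the mean of the sexes, 34 and 25 for the sex difference in controls and in mutants, and 0 for the interaction. In the order males, females and mean of the sexes, array weights gave 2857, 5803 and 10073, a slide block 52, 13 and 58, and brightness as a covariate 54, 42 and 116. With no filter on dim probes, males gave 35 and females 43, and with only the groups compared, 26 and 34. For the sex difference in controls, only the groups compared gave 10, array weights 238 and a slide block 13. For that in mutants, probes well above background on all 12 arrays gave 11, only the groups compared 10, array weights 127, a slide block 7 and brightness 10. For the interaction a slide block gave 8 and brightness 1. Leaving out each embryo gave 26 to 52 in males, 31 to 133 in females, 126 to 4827 in the mean of the sexes, 19 to 40 and 11 to 17 for the sex difference in controls and in mutants, and 0 to 0 for the interaction. The highest counts, 133 and 4827, were without control female 3. The correlation of Dlk1 with Meg3 was 0.0193 after quantile normalization, and that of H19 with Igf2 was not run.

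Whether the replicate numbers pair the embryos could not be told with 3 embryos a group. Same-numbered deviations from the group means correlated at -0.108, 0.311 and 0.297 in males and at 0.0123, -0.236 and -0.532 in females. Differently numbered ones ranged from -0.482 to 0.307 in males and from -0.492 to 0.553 in females. With a replicate block the counts were 62 in males, 48 in females, 175 in the mean of the sexes, 23 and 16 for the sex difference in controls and in mutants, and 0 for the interaction, with 0 members.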

Other observations

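The list of imprint maintenance factors gave no call. Of 9 tested, 5 had a positive and 4 a negative mutant difference over both sexes, with a median of 0.19 against -0.05 over all features, and 3 had an unadjusted p under 0.05 in limma, against 23.6% of all features. Dnmt1, the methyltransferase that copies methylation after replication, was at 1.44, 1.06 and 1.76 in mutant males against 0.62, 0.84 and 0.98 in control males, and at 1.59, 1.89 and 1.36 in mutant females against 0.85, 0.94 and 1.63 in control females. The male groups did not overlap, as for 20.3% of all features, and in females control female 3 lay among the mutants. Trim28, a corepressor that works with Zfp57, was at 4.33, 3.76 and 4.42 in mutant males against 3.62, 3.67 and 3.93 in control males, and at 4.45, 4.85 and 4.35 in mutant females against 3.69, 3.74 and 4.44 in control females. The mean difference was 0.54 ± 0.17 for Dnmt1 (adjusted p = 0.155) and 0.51 ± 0.17 for Trim28 (adjusted p = 0.164). In both genes, as on the brightest probe of every measured member, control female 3 was the highest of the control females.

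Ins2, which lies near Igf2 in the RefSeq order, was at -3.45, -3.18 and -3.13 in control males against -2.77, -2.90 and -2.65 in control females. The male and female controls did not overlap, as for 15.9% of all features, and the difference was -0.48 ± 0.13 (adjusted p = 0.295). In mutants Ins2 was at -3.05, -3.09 and -2.76 in males against -2.74, -2.82 and -2.74 in females, which overlapped. On the second Ins2 probe, well above background in all mutants, the mutant sexes did not overlap, as for 22.8% of all features. The male minus female difference of mutants on that probe was -0.51 ± 0.11 (adjusted p = 0.188 over all probes). The control difference on the first probe was 0.15 under normexp, opposite in sign.

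The other genes of smallest p in their lists also missed the adjusted threshold in limma. Sfmbt2, paternally expressed, had a mutant minus control difference of 0.23 ± 0.07 over both sexes (adjusted p = 0.163), and 0.00 under normexp. The male minus female difference in controls was -0.88 ± 0.37 for Nap1l5 and 0.29 ± 0.13 for Usp29, both paternally expressed, and -0.31 ± 0.14 for Ube3a and -0.53 ± 0.27 for Kcnq1. Under normexp it was 0.06 for Nap1l5 and 0.02 for Kcnq1, and with slide as a block 0.03 for Kcnq1. The second Ube3a probe gave 0.25 ± 0.18, opposite in sign, so no direction could be given for Ube3a. In the same comparison it was -0.38 ± 0.17 for Igfbp4, which binds IGFs outside the cell, 0.34 ± 0.16 for Hells, a chromatin remodeller, and 2.01 ± 1.07 for Dppa3, which exceeded background in only 2 control females out of 3. Without control female 2 the Dppa3 value was 0.60 and without control female 1 it was 3.43. The adjusted p of these 7 genes lay between 0.463 and 0.488.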
